A study of Mus musculus with 6 samples.

Results

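Divergent protein-coding promoter pairs are start sites from which a pair of protein-coding genes is transcribed in opposite directions, away from a short shared stretch of DNA. They were taken from the GENCODE vM21 annotation of mouse GRCm38 (mm10), chromosomes 1 to 19, as genes on opposite strands whose 5′ ends faced each other without overlap and lay at most 1000 bp apart. The rule gave 734 pairs with 1448 genes, out of 20807 protein-coding genes, and 19359 genes had no such partner and served as the comparison (single promoters). Of the 734 pairs, 40 shared a gene with another pair and 74 held a gene with a provisional Gm or Rik symbol. The distance between start sites had a median of 128 bp, with quartiles of 66.2 and 240 bp and a range of 1 to 987 bp.

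The data came from CUT&RUN, a method that tethers a nuclease to an antibody-bound protein and sequences the fragments it frees, in the mouse embryonic stem cell line E14, kept in serum and LIF. HA-Ash2L E14 cells, labelled as a knock-in and treated with doxycycline for 48 h to express HA-tagged ASH2L, were profiled with an anti-HA and an anti-H3K4me3 antibody, with 2 samples each. Anti-HA samples of parental wild-type E14 cells (2 samples, doxycycline also listed) were not analysed here, so that signal of the HA antibody without its tag was not subtracted. The methods describe the HA-ASH2L line as grown from single colonies after insertion of an inducible transposon, with no change to endogenous Ash2l described, so that it is a clone rather than a population. The duplicates of each group were merged before peak calling, which left 1 peak list per target, 59927 H3K4me3 peaks and 2464 ASH2L peaks, and no spread between samples.

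At a divergent promoter, RNA polymerase complexes of both genes assemble close together, usually in a CpG island, and such pairs are known for housekeeping genes of metabolism, DNA repair and translation and for histones. H3K4me3 is a histone mark of nucleosomes that flank start sites of active and poised genes. It is written by the MLL/SET1 methyltransferases, for which ASH2L is a core subunit, so that both readouts report on the same machinery.

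The DNA between the start sites is shown for 8 pairs that carry the contrasts described here. Each runs 5′ to 3′ on the plus strand of GRCm38 from the base after the start of the minus-strand gene (named first) to the base before the start of the plus-strand gene. Capitals mark matches, on either strand, of CCAAT (bound by NF-Y), GGGCGG (the GC box, bound by SP factors) and TATAAA (the TATA box). Hadha/Hadhb carried both an H3K4me3 and an ASH2L peak, Mrps12/Sars2 an H3K4me3 peak only, Mthfd2/Mob1a the ASH2L peak with the highest fold enrichment, Smim14/Ube2k a wide and Pecr/Tmem169 a narrow H3K4me3 peak, Hist1h2ae/Hist1h2bg is a histone pair, and Med22/Rpl7a and Best1/Rab3il1 had no peak.
Hadha/Hadhb, chr5:30155163-30155247: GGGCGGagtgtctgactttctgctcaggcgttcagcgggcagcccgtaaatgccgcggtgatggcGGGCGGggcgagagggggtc
Mrps12/Sars2, chr7:28741821-28741991: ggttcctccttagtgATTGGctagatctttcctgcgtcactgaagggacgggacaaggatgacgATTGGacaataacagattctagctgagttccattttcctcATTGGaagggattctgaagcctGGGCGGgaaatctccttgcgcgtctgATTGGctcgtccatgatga
Mthfd2/Mob1a, chr6:83325909-83326015: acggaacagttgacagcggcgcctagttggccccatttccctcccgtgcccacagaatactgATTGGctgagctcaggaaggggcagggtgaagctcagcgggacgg
Smim14/Ube2k, chr5:65537185-65537232: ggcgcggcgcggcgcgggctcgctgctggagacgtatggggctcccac
Pecr/Tmem169, chr1:72284315-72284368: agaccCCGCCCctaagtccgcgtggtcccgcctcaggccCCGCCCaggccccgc
Hist1h2ae/Hist1h2bg, chr13:23571221-23571395: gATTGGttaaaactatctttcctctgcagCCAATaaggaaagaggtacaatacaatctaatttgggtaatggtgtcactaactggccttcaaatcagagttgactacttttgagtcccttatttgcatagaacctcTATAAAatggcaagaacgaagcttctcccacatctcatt
Med22/Rpl7a, chr2:26910678-26910763: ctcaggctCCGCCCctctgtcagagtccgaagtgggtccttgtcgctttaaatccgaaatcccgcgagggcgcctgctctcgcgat
Best1/Rab3il1, chr19:10001634-10001668: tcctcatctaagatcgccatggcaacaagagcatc
These intervals hold 9 CpG dinucleotides at Hadha/Hadhb, 9 at Med22/Rpl7a and 1 at Best1/Rab3il1.

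To ask how often divergent promoters carry the mark, peaks were sought between the start sites and up to 500 bp beyond each. An H3K4me3 peak was found at 697 of 734 pairs (95%), against a background of 63.0% of single promoters (12203 of 19359). The difference was 31.9 percentage points (95% interval 30.0 to 33.4). Intervals are from counting error over loci, which are not replicates, and no test over samples was possible. The pair share exceeded the single share on 19 of 19 chromosomes. Genes that had no coding partner but a noncoding gene head to head carried a peak in 82.7% of 860 cases, and genes with overlapping 5′ ends of coding genes in 94.7% of 873. Stand-alone genes, with no such neighbour, carried it in 59.2% of 16852. The pairs thus exceeded the noncoding-partner genes by 12.3 points (9.28 to 15.3).

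Pairs were also richer in CpG. The observed over expected CpG ratio in 1000 bp around the midpoint had a median of 0.776 at pairs and 0.530 at single promoters, and GC content was 60.3% against 54.5%. In the group with the lowest CpG ratio, at or below the lower quartile of the pairs (0.672), H3K4me3 was present at 87.0% of pairs (160 of 184) and 44.8% of single promoters, whose ratios in this group ran down to 0, against 0.101 at pairs. In the group above it the shares were 98.4% and 95.2%, then 97.8% and 94.9%, and in the highest group 96.7% and 94.1%. With single promoters weighted to the CpG ratios of the pairs, their share was 88.4% and the difference 6.55 points. The difference also depended on a threshold on fold enrichment, though not on one on the p-value score. With a score of at least 100, the shares were 93.1% and 60.5%, 32.5 points apart (30.4 to 34.3). When only peaks at or above the median fold enrichment of 6.46 were kept, 33.9% of pairs and 31.6% of single promoters had one, a difference of 2.37 points (-1.03 to 5.93). Wider peaks had lower fold enrichments, so that this threshold keeps fewer of them.

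**Figure D1:**
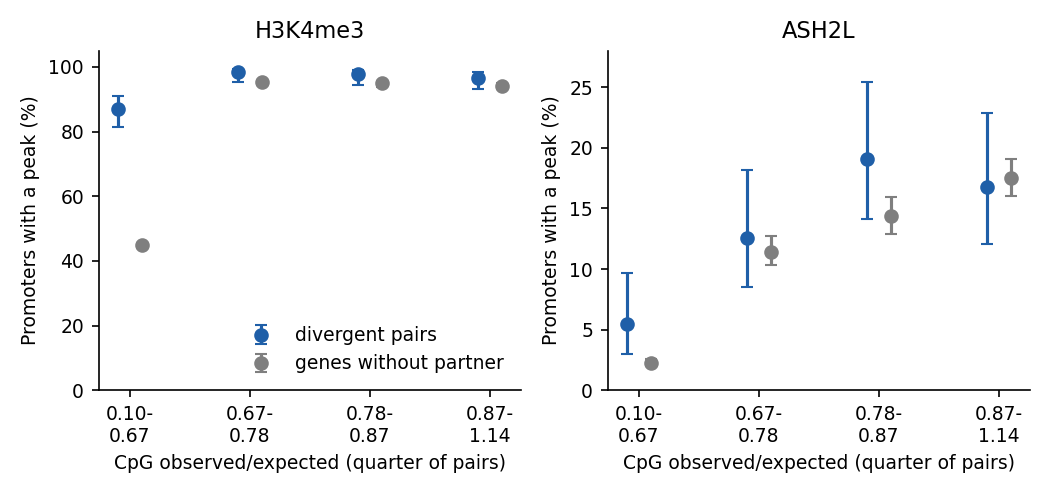
Share of promoters with an H3K4me3 peak (left) or an ASH2L peak (right), in percent, by CpG observed/expected ratio in the quartile groups of the pairs, with 95% Wilson intervals. For H3K4me3 the groups stand apart mainly in the lowest CpG group (87.0% of pairs, 44.8% of single promoters), and for ASH2L both shares are smallest in that group (5.43% and 2.27%).

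The remaining 37 pairs had no H3K4me3 peak. Their CpG ratio had a median of 0.392, against 0.781 at the marked pairs, and 9 of the 37 held a gene with a Gm or Rik symbol. Several were pairs of genes with restricted expression and few CpGs, such as Best1/Rab3il1 (ratio 0.101; Best1 encodes a chloride channel of the retinal pigment epithelium), Il11/Tmem190 (0.113) and Pecam1/Milr1 (0.327; Pecam1 is an endothelial adhesion molecule). However, 13 of 37 had a ratio of at least 0.672, the lower quartile of all pairs, compared with 5.14% of single promoters without a peak. They included Med22/Rpl7a (0.852; a Mediator subunit and a ribosomal protein), Cks1b/Shc1 (0.738; a cell cycle kinase subunit and a signalling adaptor), Hnrnpa2b1/Cbx3 (1.03; an RNA-binding protein and heterochromatin protein HP1γ), Dido1/Gid8 (0.952) and Ccnb1ip1/Parp2 (0.790; Parp2 acts in DNA repair). Most pairs lie above the limit of 0.672 by its definition, so that this contrast does not show pairs rich in CpG to lack the mark more often. In the CpG groups above it, H3K4me3 was present at 98.4%, 97.8% and 96.7% of pairs and at 95.2%, 94.9% and 94.1% of single promoters. The nearest H3K4me3 peak was at a median of 7099 bp from the unmarked pairs and 20334 bp from unmarked single promoters.

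Because several of these genes are expressed in most cells, the list was checked at marker genes of the labelled cell type. A peak lay at 3 of 10 embryonic stem cell markers (Klf4, Zfp42 and Lin28a), whereas none lay at Pou5f1, Nanog, Sox2, Esrrb, Tdgf1, Utf1 and Dppa5a, where the nearest peak was 4069 to 25135 bp away. Of fibroblast markers 5 of 5 had a peak, of liver 1 of 2, of muscle 1 of 2, of keratinocyte 2 of 2 and of blood 0 of 3, beside 63.0% of single promoters. The defining markers of the labelled cell type were thus mostly absent from the list, and a promoter without a peak in it is not shown to lack the mark. The part of peak calling in this was not tested, and whether the list used here is complete at these loci is not known, which also bears on the 37 pairs without a peak.

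At marked pairs, 1 H3K4me3 peak nearly always covered both start sites. The rule sets these at most 1000 bp apart, so that 1 peak can reach both by its width alone. Peaks of single promoters had a median width of 2846 bp, and 97.5% of marked single promoters (11901 of 12203) had a peak over the start site. In 693 of 697 marked pairs (99.4%, 98.5 to 99.8), 1 peak covered both start sites, and in 0 of 697 were the start sites covered by separate peaks, which allows a share of up to 0.430% when a count of 0 is taken to allow 3 (0.548% by the Wilson interval). The other 4 were Nmur1/Tex44 and Nisch/Sema3g, in which the peak covered no start site, and Smyd1/Cd8b1 and Haghl/Ccdc78, in which it covered that of Cd8b1 or Haghl. Zfp944/Zfp758, which encode zinc finger proteins, had a second peak beside the covering peak. Counted with 500 bp around each gene's own start site, both genes were marked in 696 pairs (94.8%), neither in 37, and 1 gene only at Nisch/Sema3g, where start sites lay 914 bp apart. Nisch encodes an imidazoline-binding protein and Sema3g a secreted semaphorin, and the peak of 140 tags lay on the Nisch side.

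Head-to-head neighbours farther apart shared the mark less often. With no coding start site in between, both genes were marked in 95% of 714 neighbours within 1000 bp, in 41.7% of 372 over 1000 and up to 5000 bp apart (36.8 to 46.7) and in 52.3% of 1213 over 5000 and up to 20000 bp apart (49.5 to 55.1). Only 1 gene was marked in 0.140%, 39.2% and 28.4% of these. Windows of close neighbours overlap, so that 1 peak can serve both genes by construction. For ASH2L, within 1000 bp both genes had a peak at 91 neighbours and 1 gene at 3, whereas over 1000 and up to 5000 bp apart the counts were 0 and 38, and over 5000 and up to 20000 bp apart 5 and 157. ASH2L lay at 6.63% of single promoters, so that farther neighbours with a peak at both genes would be few even if the peaks were unrelated. The overlap of windows applies here too, and the contrast was not tested.

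H3K4me3 domains at pairs were wider than at single promoters. Peak width had a median of 3599 bp at pairs (interval 3505 to 3704, quartiles 3025 and 4563) and 2846 bp at single promoters (2822 to 2872), a difference of 753 bp (633 to 882). Peaks of pairs held a median of 666 tags against 452, and 180 tags per kb against 153. The wider domain was made up of a gene side in both directions. From each start site of a pair the peak reached a median of 1682 bp into the gene (1699 bp for the minus-strand and 1670 bp for the plus-strand gene). At single promoters it reached 1728 bp into the gene and 1019 bp upstream. The difference in reach into the gene was -46.5 bp (-87.0 to 5.00). Genes with a noncoding partner had 1848 bp into the gene, more than either group, and 1363 bp upstream. The domain at pairs was also the more even: the longer reach was at least 2 times the shorter at 18.5% of pairs (128 of 693) and at 42.5% of single promoters. With single promoters weighted to the CpG ratios of the pairs, the difference in width was 488 bp and that in reach -170 bp.

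**Figure D2:**
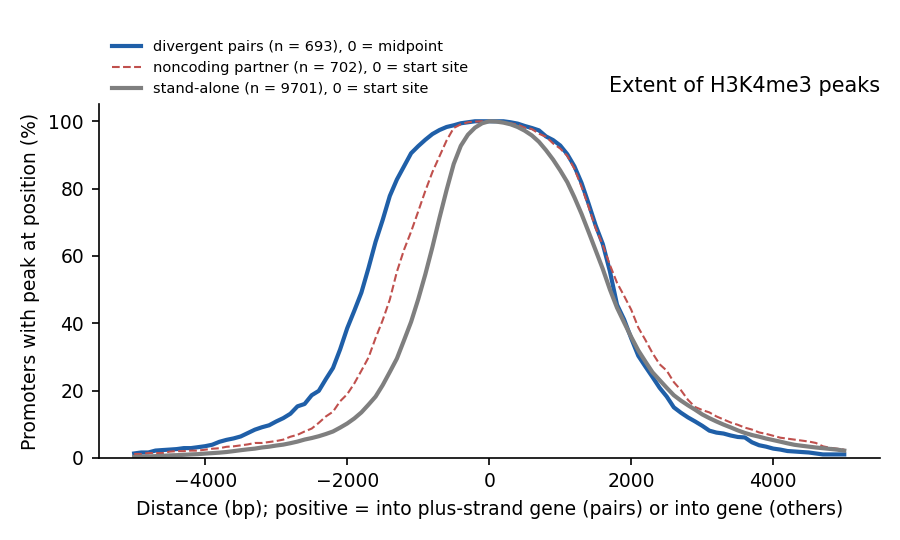
Share of promoters, in percent, whose start-site-covering H3K4me3 peak extended over each position, for 693 pairs (0 is the midpoint, positive values run into the plus-strand gene) and for 702 genes with a noncoding partner and 9701 stand-alone genes (0 is the start site, positive values run into the gene). To the right the curves lie close together; to the left, the peak of pairs still covered 64.2% at -1600 bp, against 35.6% with a noncoding partner and 18.2% at stand-alone genes.

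Fold enrichment, which the peak caller takes against tags of the same library within 10000 bp, ran opposite to width. It had a median of 5.91 at pairs and 6.46 at single promoters. Among pairs it was 7.29 in the narrowest width group (802 to 3202 bp), 6.03 in the middle group and 4.43 in the widest (4189 to 8609 bp), while tags rose from 492 to 672 and 919. Single promoters in the same width groups had 7.67, 5.57 and 4.31. The part of the local background in this was not tested.

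Leaving out pairs with Gm or Rik symbols, the 5 pairs with the highest fold enrichment had peaks of 1464 to 2089 bp. They were Bhmt2/Dmgdh (12.0-fold, 121 tags, 1464 bp), both enzymes of choline and methionine metabolism, Kctd19/Lrrc36 (11.8-fold, 218 tags), Pus7l/Irak4 (11.3-fold, 274 tags; a pseudouridine synthase-like protein and a kinase of Toll-like receptor signalling), Pecr/Tmem169 (11.3-fold, 263 tags; Pecr is a peroxisomal reductase) and Rnf25/Stk36 (11.1-fold, 337 tags; a ubiquitin ligase and a kinase). The CpG ratios of these 5 lay between 0.536 and 0.647, all below the median of the pairs. The widest non-histone peaks were those of Top3a/Smcr8 (8268 bp, 1418 tags, 3.47-fold; Top3a is a DNA topoisomerase), Smim14/Ube2k (8201 bp, 1229 tags, 3.64-fold; Ube2k is a ubiquitin-conjugating enzyme) and Tmem79/Smg5 (8000 bp, 1505 tags, 2.78-fold; Smg5 acts in nonsense-mediated decay). The most tags were held by Zbtb25/Zbtb1 (1512 tags over 7779 bp), both zinc finger transcription regulators, and Cbx5/Hnrnpa1 (1508 tags over 7816 bp), heterochromatin protein HP1α and an RNA-binding protein. The highest fold values thus belonged to other pairs than the most tags.

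**Figure D3:**
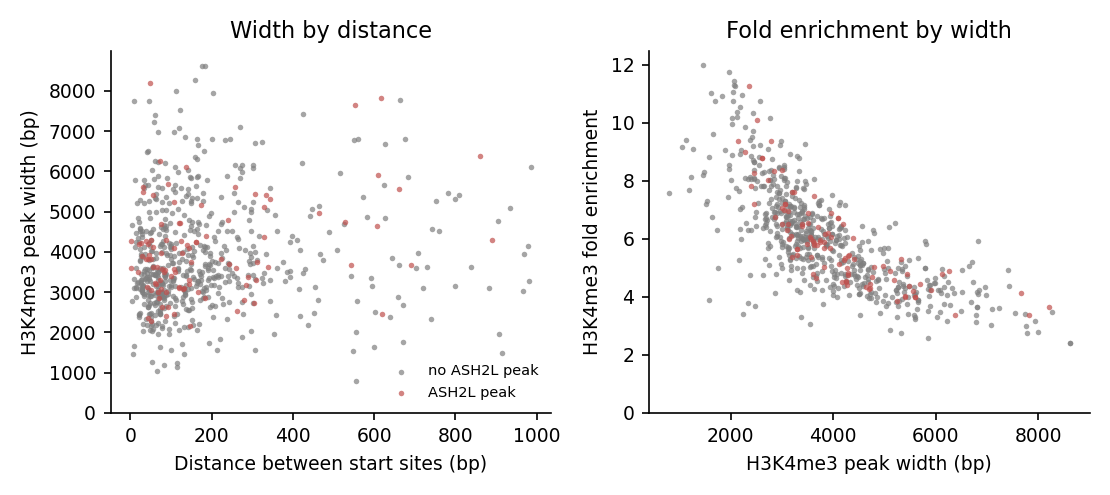
H3K4me3 peak width in bp against the distance between start sites in bp (left) and H3K4me3 fold enrichment against peak width in bp (right), 1 point per marked pair, with pairs that also had an ASH2L peak in red. Widths run from 802 to 8609 bp with a wide scatter at short distances, and fold enrichment is lower in wider peaks.

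Among the pairs themselves, the presence of the mark did not separate the distance groups. H3K4me3 was present at 96.4% of the 306 pairs up to 100 bp apart, 94.0% of the 200 up to 200 bp, 93.8% of the 96 up to 300 bp, 96.9% of the 64 up to 500 bp and 91.2% of the 68 up to 1000 bp apart, each group starting where the one before it ended, and the intervals of these shares overlapped. Peak width increased over these groups from 3434 bp (3292 to 3545) to 4012 bp (3599 to 4769), while the reach into each gene stayed at 1634 to 1758 bp. CpG ratios were 0.782 to 0.806 up to 500 bp and 0.630 (0.588 to 0.694) beyond.

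The H3K4me3 summit, the position of most tags in the peak, lay between the start sites in 43.0% of marked pairs (300 of 697), in the minus-strand gene in 26.4% and in the plus-strand gene in 30.6%. It was within 100 bp of the midpoint in 50.2% of pairs. At single promoters 39.5% of summits were within 100 bp of the start site, and 60.1% were downstream. The median over all of them was 50 bp downstream. The share of summits between the start sites was 32.5% for pairs up to 100 bp apart and 54.8% for those over 500 bp apart, where the stretch between them is longer. Where the summit was in a gene, it was the gene with the longer reach in 236 of 393 pairs (60.1%, 55.1 to 64.8). The longer reach had a median of 1991 bp and the shorter of 1448 bp, so that a summit placed anywhere in the peak would fall more often on the longer side.

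ASH2L was recorded at fewer promoters. An ASH2L peak was found at 99 of 734 pairs (13.5%, 11.2 to 16.1), against a background of 6.63% of single promoters (1284 of 19359), a difference of 6.86 points (4.55 to 9.54). The share was higher at pairs on 16 of 19 chromosomes and lower on chromosomes 4, 14 and 15. These peaks were 94 of the 2464 in the list (3.81%). They held a median of 36 tags (34.0 to 39.0), against 36 (35.0 to 36.0) at single promoters, with fold enrichments of 5.37 and 5.30. Genes with a noncoding partner had ASH2L in 10.5% of cases, a difference from pairs of 3.02 points (-0.164 to 6.28). Genes with overlapping 5′ ends had it in 12.8% of cases with a coding and 13.1% with a noncoding partner, inside the interval of the pairs. All 99 pairs with ASH2L had an ASH2L peak that overlapped an H3K4me3 peak, as did 96.0% of single promoters with ASH2L. Of the 37 pairs without H3K4me3, 0 had ASH2L, which by the same limit of 3 counts allows a share of up to 8.11% (9.41% by the Wilson interval). Single promoters without H3K4me3 had ASH2L in 0.699% of cases (50 of 7156), a share inside that limit, so that the count of 0 does not set the pairs apart.

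Among promoters with H3K4me3, ASH2L was present at 14.2% of pairs and 10.1% of single promoters, a difference of 4.09 points (1.63 to 6.93). With these single promoters weighted to the CpG ratios of the pairs the difference was 1.42 points, and weighted to their H3K4me3 tags it was 1.02 points. Over all promoters, weighting on CpG left 1.33 points. In the CpG groups from low to high, ASH2L was present at 5.43%, 12.6%, 19.1% and 16.8% of pairs and at 2.27%, 11.4%, 14.4% and 17.5% of single promoters, with overlapping intervals in the upper 3. The peaks were weak: 25 of 99 had a score under 60, where the cutoff is 50, and with a score of at least 100 the shares were 1.50% of pairs and 0.826% of single promoters, 0.672 points apart (-0.00185 to 1.84).

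Pairs with ASH2L had H3K4me3 peaks with a median of 748 tags (698 to 802) against 652 (633 to 672) at marked pairs without it, and a CpG ratio of 0.818 (0.794 to 0.838). ASH2L was found at 10.3% of marked pairs in the narrowest width group, 15.5% in the middle and 16.8% in the widest, with overlapping intervals. Leaving out pairs with Gm or Rik symbols, the highest ASH2L fold enrichments were those of Mthfd2/Mob1a (7.64-fold, 46 tags; a mitochondrial folate enzyme and a Hippo pathway adaptor), Smim14/Ube2k (7.26-fold, 40 tags), Pdcd10/Serpini1 (7.00-fold, 29 tags; Serpini1 is the neuronal protease inhibitor neuroserpin), Senp8/Myo9a (6.94-fold, 61 tags; a NEDD8 protease and an unconventional myosin) and Trappc13/Trim23 (6.74-fold, 26 tags; a trafficking complex subunit and a ubiquitin ligase), level with Dclre1b/Ap4b1 (6.74-fold, 27 tags). Of these, Smim14/Ube2k was also among the widest H3K4me3 peaks, and Mthfd2/Mob1a had one of 2448 bp.

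Most ASH2L summits lay in the genes. Of 99 summits, 14 (14.1%, 8.61 to 22.3) were between the start sites, 45 in the minus-strand and 40 in the plus-strand gene. By distance between start sites, 2 of 42 lay between them in pairs up to 100 bp apart and 1 of 27 up to 200 bp, where little room lies between, but 4 of 9 up to 300 bp, 5 of 10 up to 500 bp and 2 of 11 beyond. Those in genes were at a median of 173 bp from the nearer start site. At single promoters 74.3% of ASH2L summits were downstream of the start site, and the median position was 156 bp downstream. Within 100 bp of the midpoint lay 20.2% of ASH2L summits (13.5 to 29.2), against 50.2% of H3K4me3 summits (46.5 to 53.9). The ASH2L and H3K4me3 summits of a pair were on the same side of the midpoint in 65 of 99 (65.7%, 55.9 to 74.3), at a median of 215 bp from each other. The gene with the ASH2L summit was the one with the longer H3K4me3 reach in 44 of 85 pairs (51.8%, 41.3 to 62.1). At Mthfd2/Mob1a the ASH2L summit was 268 bp and the H3K4me3 summit 453 bp to the Mob1a side of the midpoint, and at Hadha/Hadhb the ASH2L summit was 210 bp to the Hadha side while the H3K4me3 summit was 10 bp to the Hadhb side.

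**Figure D4:**
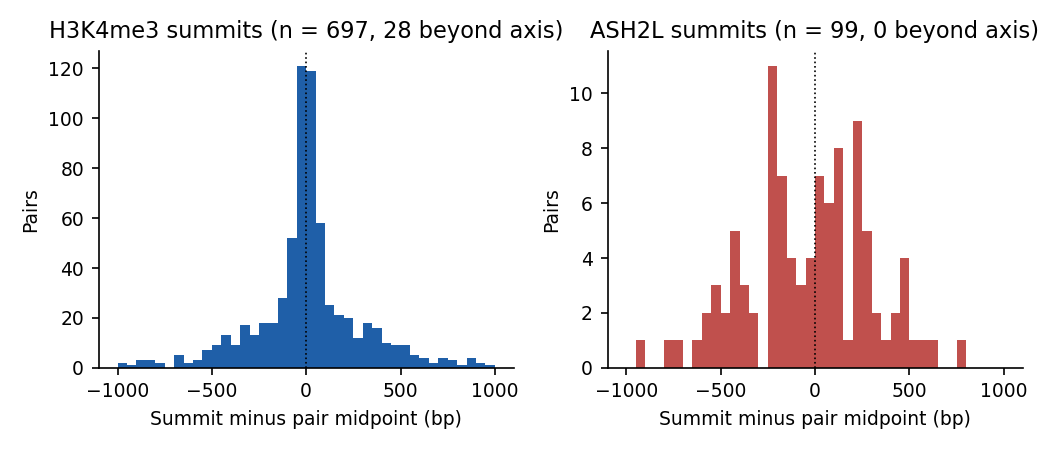
Number of pairs by position of the peak summit relative to the pair midpoint in bp, in 50 bp bins, with positive values towards the plus-strand gene, for 697 H3K4me3 peaks (28 beyond 1000 bp are not drawn) and 99 ASH2L peaks (0 not drawn). H3K4me3 summits pile up at the midpoint, and ASH2L summits are spread to both sides of it.

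Of 21 gene pairs well known as head to head, 10 met the rule, and 9 of these had H3K4me3 and 2 ASH2L, near the 95% and 13.5% of all pairs. Hadha/Hadhb, the α and β subunits of the mitochondrial trifunctional protein of fatty acid oxidation, had 726 H3K4me3 tags over 3544 bp and an ASH2L peak of 4.56-fold with 35 tags. Gart/Son, a purine synthesis enzyme and a splicing cofactor, had 1358 H3K4me3 tags over 7654 bp and an ASH2L peak of 3.91-fold with 49 tags. Atm/Npat (815 tags; a DNA damage kinase and the activator of histone transcription), Mcm4/Prkdc (756 tags; a replicative helicase subunit and a DNA repair kinase), Mrps12/Sars2 (757 tags; a mitochondrial ribosomal protein and a mitochondrial seryl-tRNA synthetase), Brca1/Nbr1 (1088 tags), B3galt6/Sdf4 (971 tags) and Polr1c/Yipf3 (603 tags) had no ASH2L peak, and Wrap53/Trp53 had neither. In 9 other known pairs the 5′ ends overlapped, from 21 bp at Col4a1/Col4a2, the collagen IV chains, to 341 bp at Sirt3/Psmd13. Of these, 7 had H3K4me3 and 0 ASH2L, beside 94.7% and 12.8% of all genes with overlapping coding 5′ ends, and Ppat/Paics and Surf1/Surf2 had no H3K4me3 peak. The remaining known pairs were Acadvl/Dlg4, 1531 bp apart, and Thbs3/Mtx1, whose annotated ends overlapped deeply (a gap of -11908 bp).

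Housekeeping families were frequent among the pairs. Against 6.96% of all coding genes, pairs held 9 of 28 RNA polymerase genes (32.1%), 12 of 44 Nduf genes of complex I and its assembly (27.3%; Ndufa4 had ASH2L), 12 of 44 DNA repair genes (27.3%), 18 of 78 mitochondrial ribosome genes (23.1%), 8 of 38 chaperones (21.1%) and 7 of 49 proteasome genes (14.3%; Psma7 and Psmc2 had ASH2L) and 4 of 16 replication licensing genes, and all of these genes in pairs had H3K4me3, as did 1376 of all 1448 paired genes (95%). Genes of the same families without such a partner had H3K4me3 in 83.3% (proteasome) to 98.3% (mitochondrial ribosome) of cases, beside 63.0% of all single promoters. Cytosolic ribosome genes were in pairs in 9 of 88 cases (10.2%) and 6 of these 9 had H3K4me3, Rpl7a, Rpl35a and Rps2 being without. Slc transporters (17 of 358, 4.75%), Zfp zinc fingers (21 of 388, 5.41%) and Tmem genes (23 of 235, 9.79%) were nearer the background. Cytochromes P450 had 1 of 100 in a pair, keratins 0 of 53 and olfactory receptors 0 of 1128. Against 13.3% of all paired genes, ASH2L was present at 3 of the 9 paired RNA polymerase genes (Polr1d, Polr3f and Polr3g), at Rad51c and Rad17 among the DNA repair genes and at 1 of the 18 mitochondrial ribosome genes (Mrpl40). These lists are short and no difference between them was tested.

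Replication-dependent histones made up 27 paired genes of 66 (40.9%), the highest share of the families examined. Of 11 divergent Hist1h2a/Hist1h2b pairs on chromosome 13, which encode core histones H2A and H2B, 8 had H3K4me3 and 0 ASH2L, beside 95% and 13.5% of all pairs. Hist1h2ae/Hist1h2bg and Hist1h2bf/Hist1h2ad lay under 1 common peak of 8609 bp with 1240 tags at 2.42-fold, the lowest fold enrichment of any pair. The other 6 ranged from 115 tags at Hist1h2ba/Hist1h2aa, a testis-specific pair, to 940 at Hist1h2ah/Hist1h2bk. Hist1h2an/Hist1h2bp, Hist1h2bq/Hist1h2ao and Hist1h2ap/Hist1h2br had no peak although their CpG ratios were 0.957 to 0.997. These genes are near-identical copies, and reads that fit several copies cannot be assigned with certainty. The part of this in the presence or absence of a peak was not tested.

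Motifs were counted in 300 bp, centred on the pair midpoint, or from 250 bp before the start site of single promoters, on both strands, and matches of different motifs could overlap. CCAAT was found in 44.3% of pairs (40.7 to 47.9) and 38.2% of single promoters, and GGGCGG in 67.8% (64.4 to 71.1) and 41.8%. The ETS motif CCGGAAGT was found in 13.2% (11.0 to 15.9) and 4.16%, the NRF1 core GCATGCGC in 6.68% and 3.19%, the CRE TGACGTCA in 4.50% and 2.26%, and the YY1 core AAGATGG in 10.6% and 5.95%. TATAAA went the other way, with 4.50% of pairs (3.22 to 6.25) and 13.4% of single promoters. With windows centred on the single start site the shares were 35.7% for CCAAT, 44.7% for GGGCGG, 4.45% for CCGGAAGT and 11.3% for TATAAA. Of the sequences printed above, Mrps12/Sars2 held CCAAT and GGGCGG, Mthfd2/Mob1a CCAAT, and Med22/Rpl7a, which had no peak, GGGCGG. Pairs with ASH2L held CCGGAAGT in 12.1% and GGGCGG in 74.7% of cases. The GC box, ETS, NRF1 and CRE motifs contain a CpG, and the part of the higher CpG content of pairs in their shares was not tested.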

How the data were processed

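Duplicates of each group were merged by the authors before peak calling. Per the file headers, MACS 1.4.3 was run on each merged library with a p-value cutoff of 1e-05, without a control library, with 1 tag kept per position and a local background of 10000 bp. After filtering, 27328071 H3K4me3 and 25677963 ASH2L tags remained, of which 45.7% and 0.398% lay in peaks. The deposited tag counts are whole tags per peak, not normalized. The tag sizes in the headers, 142 bp for H3K4me3 and 151 bp for ASH2L, exceed the fragment limit of the methods, so that which fragments the counts, widths and tags per kb rest on is not settled. The deposited fold enrichment is a ratio to the modelled background of the same library, and the deposited score is −log10 of the p-value multiplied by 10. Sequence that collects tags with any antibody was therefore not removed. The submitters' processing notes also name Bowtie2, SAMtools 1.5, bedtools and HOMER 4.10, and mm10.

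Pairs were found by script in GENCODE vM21, and a peak counted with an overlap of at least 1 bp. Shares have Wilson intervals, differences Newcombe intervals and medians order-statistic intervals, all 95%. Weighting used 10 CpG groups. Sequence came from RefSeq GRCm38. Named pairs were those well known as head to head, the Hist1h2a/Hist1h2b pairs, the 5 highest by fold enrichment of either target, width and tags, and unmarked or unevenly marked pairs without Gm or Rik symbols; other names were chosen after their values were seen, and some selected items are left out of the text. The members and lists were chosen with earlier results of these data known. The procedures were tested on simulated data. The tools were pandas 2.3.3 and numpy 2.4.6, matplotlib 3.10.9, scipy 1.17.1 and pysam 0.24.0 under Python 3.11.15.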

Additional observations from a re-analysis of the deposited data

How the results depend on the processing

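No paired analysis was possible because each peak list merges the duplicates of its group and its columns carry no replicate, and for the same reason no replicate could be left out. The windows, overlaps, thresholds and gene sets tried gave 85 values, of which 68 stayed within the interval or at the value reported and 17 moved. For the H3K4me3 share, pairs minus single promoters, the difference of 31.9 points became 2.37 with peaks at or above the median fold enrichment, 35.7 against stand-alone genes, 6.55 with single promoters standardised on CpG and 29.6 without Gm and Rik gene models. For ASH2L, the difference of 6.86 points became 3.57 with peaks at or above the median fold enrichment, 0.672 with a score of at least 100 and 1.33 standardised on CpG. Alternatives chosen after seeing the data were restricted to promoters with H3K4me3 and gave 4.09, and 1.42 or 1.02 when standardised on CpG or on H3K4me3 tags. The share of pairs with 1 H3K4me3 peak over both start sites was 99.8% at distances of at most 300 bp, and the share with both genes marked was 33.8% with peaks at or above the median fold enrichment and 92.9% with a score of at least 100. Standardised on CpG, the differences in width and reach were 488 and -170 bp. At or above the median fold enrichment, 50.6% of H3K4me3 summits lay between the start sites, and 38.0% of 50 ASH2L peaks at pairs overlapped an H3K4me3 peak, since fewer peaks remain in both lists. Depth was similar, with 27328071 H3K4me3 and 25677963 ASH2L tags, of which 45.7% and 0.398% lay in peaks. ASH2L peaks at pairs held a median of 36 tags, the smallest 20, so that absence of a peak does not show absence of ASH2L.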
